A study of Rattus norvegicus with 13 samples.

Results

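Prostaglandins are made from arachidonic acid and broken down by a short chain of enzymes and are sensed by receptors on the cell, and 8 genes of this pathway are described here: Pla2g4a, Ptgs1, Ptgs2, Ptges, Ptgis, Hpgd, Ptger2 and Ptger4. They were chosen by gene symbol, with earlier results of these data known. All 8 were measured among the 14217 genes named by the arrays. Where a gene had several probe sets, the brightest on average over the 13 arrays stood for it, and Ptgs1, Ptges and Hpgd had a further probe set. Values are on the log2 scale, on which 1 unit is a doubling of the signal.

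The material came from a rat model of intrahepatic cholangiocarcinoma, a cancer of the bile ducts, on the Fischer 344 background. The groups were 4 tumours, taken from young adult male rats after BDEsp cells (spontaneously transformed rat cholangiocytes) had been placed in the bile duct, 1 array of the epithelial line in co-culture with the fibroblastic line, 1 array of the fibroblastic line in co-culture with the epithelial line, 3 arrays of the epithelial line grown alone, and 4 arrays of the fibroblastic line grown alone. Both lines came from BDEsp tumours and each is 1 clone, H10 for the cholangiocarcinoma cells and E4 for the fibroblastic cells, which were described as positive for alpha smooth muscle actin. All cultures, alone or together, were kept in a type I collagen gel (rat tail), and the tumours were snap-frozen whole.

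Cytosolic phospholipase A2, encoded by Pla2g4a, frees arachidonic acid from membranes. The cyclooxygenases encoded by Ptgs1 and Ptgs2 turn it into prostaglandin H2, and terminal synthases then set the product: Ptges makes prostaglandin E2 and Ptgis makes prostacyclin. Hpgd starts the breakdown of prostaglandin E2, and Ptger2 and Ptger4 encode the EP2 and EP4 receptors, which raise cyclic AMP. In bile duct cancer the pathway is known for the induction of Ptgs2 and for growth signalling by prostaglandin E2.

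Both co-culture arrays carried the epithelial markers and most of the fibroblastic markers, whichever line the label named. Over the 6 epithelial markers the mean log2 level was 12.39 in the epithelial co-culture array and 12.32 in the fibroblastic co-culture array, against 12.76 to 13.08 in epithelial arrays and 4.37 to 5.10 in fibroblastic arrays. Over the 6 fibroblastic markers it was 10.26 and 10.52 in the same 2 co-culture arrays, against 4.74 to 4.85 in epithelial arrays and 11.57 to 11.97 in fibroblastic arrays. Krt19, a keratin of bile duct cells, read 13.21 in the array labelled fibroblastic co-culture, against 4.01 to 4.29 in the fibroblastic line. Col1a2, a collagen chain, read 13.37 in the array labelled epithelial co-culture, against 3.70 to 4.63 in the epithelial line. The 2 co-culture arrays correlated at 0.9867 with each other over all probe sets, and they are named by their labels below. Lum, a fibroblastic marker, was low in every array of the fibroblastic line (3.52 to 5.34), against 11.27 to 12.12 in tumours. It read 3.37 and 3.42 in the epithelial and fibroblastic co-culture arrays. Acta2, another fibroblastic marker, read 7.56 and 9.06 in them, against 6.37 to 7.90 in the epithelial and 9.29 to 12.13 in the fibroblastic line. Krt7, an epithelial marker, ranged from 4.65 to 8.99 in the fibroblastic line. Tumours also held other cells: the 8 macrophage markers averaged 10.03 to 10.33 in the tumours, against 4.93 to 5.45 over all cultures.

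The promoters of 3 genes whose signal stood highest in both co-culture arrays are shown for reference, from the RefSeq promoter table, which held 7 of the 8 genes (GRCr8; 250 bases before to 50 after the start, read along the gene's strand). Capitals mark matches, on either strand, to 1 of 6 motifs searched: the TATA box as TATAAA, the E-box as CACGTG, part of the cyclic AMP response element as TGACG, part of a C/EBP site as TGCAAT, the GC box as GGGCGG, and an NF-kB site as GGGACTTTC.
Ptgs2, chr13:64713813-64714112, plus strand: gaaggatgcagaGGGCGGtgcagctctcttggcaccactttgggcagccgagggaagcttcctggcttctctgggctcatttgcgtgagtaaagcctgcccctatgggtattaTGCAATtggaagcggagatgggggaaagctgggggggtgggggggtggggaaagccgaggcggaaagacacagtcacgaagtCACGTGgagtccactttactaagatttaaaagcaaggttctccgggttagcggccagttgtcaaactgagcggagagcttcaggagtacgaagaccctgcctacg
Ptges, chr3:34586938-34587237, minus strand: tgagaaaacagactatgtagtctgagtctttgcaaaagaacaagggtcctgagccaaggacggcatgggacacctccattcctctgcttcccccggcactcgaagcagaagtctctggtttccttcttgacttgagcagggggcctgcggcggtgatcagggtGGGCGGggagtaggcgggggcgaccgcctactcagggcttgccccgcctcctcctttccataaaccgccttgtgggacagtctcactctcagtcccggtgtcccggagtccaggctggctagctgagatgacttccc
Ptgs1, chr3:39981169-39981468, plus strand: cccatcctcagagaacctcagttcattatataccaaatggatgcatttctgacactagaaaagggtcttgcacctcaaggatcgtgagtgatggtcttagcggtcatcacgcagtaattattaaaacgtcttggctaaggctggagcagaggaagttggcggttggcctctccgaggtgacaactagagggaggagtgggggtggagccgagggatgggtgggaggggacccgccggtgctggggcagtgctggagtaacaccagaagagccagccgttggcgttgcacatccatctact
The Ptgs2 promoter held CACGTG at -55 to -50 from the start, TGCAAT at -137 to -132 and GGGCGG at -238 to -233. The Ptges promoter held GGGCGG at -87 to -82, and the Ptgs1 promoter held none of the 6 motifs in this window. Of 33469 promoters of the same length, the E-box was in 6.42%, the C/EBP motif in 8.37%, the GC box in 33.1%, the cyclic AMP motif in 21.2%, the TATA box in 14.2% and the NF-kB motif in 0.326%. Among the other promoters of the set, Hpgd held the cyclic AMP motif, the GC box and the E-box, Pla2g4a held the TATA box on the opposite strand, and Ptger2 and Ptger4 held none. Ptgis was not in the table.

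Pla2g4a, which supplies the arachidonic acid, was highest in the fibroblastic line. It read 8.40, 8.44, 7.88 and 8.24 in the tumours, 8.95 in the epithelial co-culture array, 8.62 in the fibroblastic co-culture array, 7.63, 8.44 and 8.61 in the epithelial line, and 9.56, 9.34, 9.88 and 9.58 in the fibroblastic line. Every fibroblastic array lay above all other arrays, while tumours and epithelial arrays overlapped. The gene was 2.55-fold lower in tumours than in the fibroblastic line (log2 difference -1.35, SE 0.22, adjusted p = 0.000409) and 2.57-fold lower in the epithelial than in the fibroblastic line (-1.36, SE 0.26, adjusted p = 0.00398). Tumours and the epithelial line differed by 0.01, with a 95% interval from -0.52 to 0.54. In co-culture it did not pass the test against either line alone (0.72, adjusted p = 0.329, for the epithelial line and -0.97, adjusted p = 0.186, for the fibroblastic line). All these arrays are bulk RNA, so fewer cells of a type and less RNA per cell cannot be told apart.

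**Figure D1:**
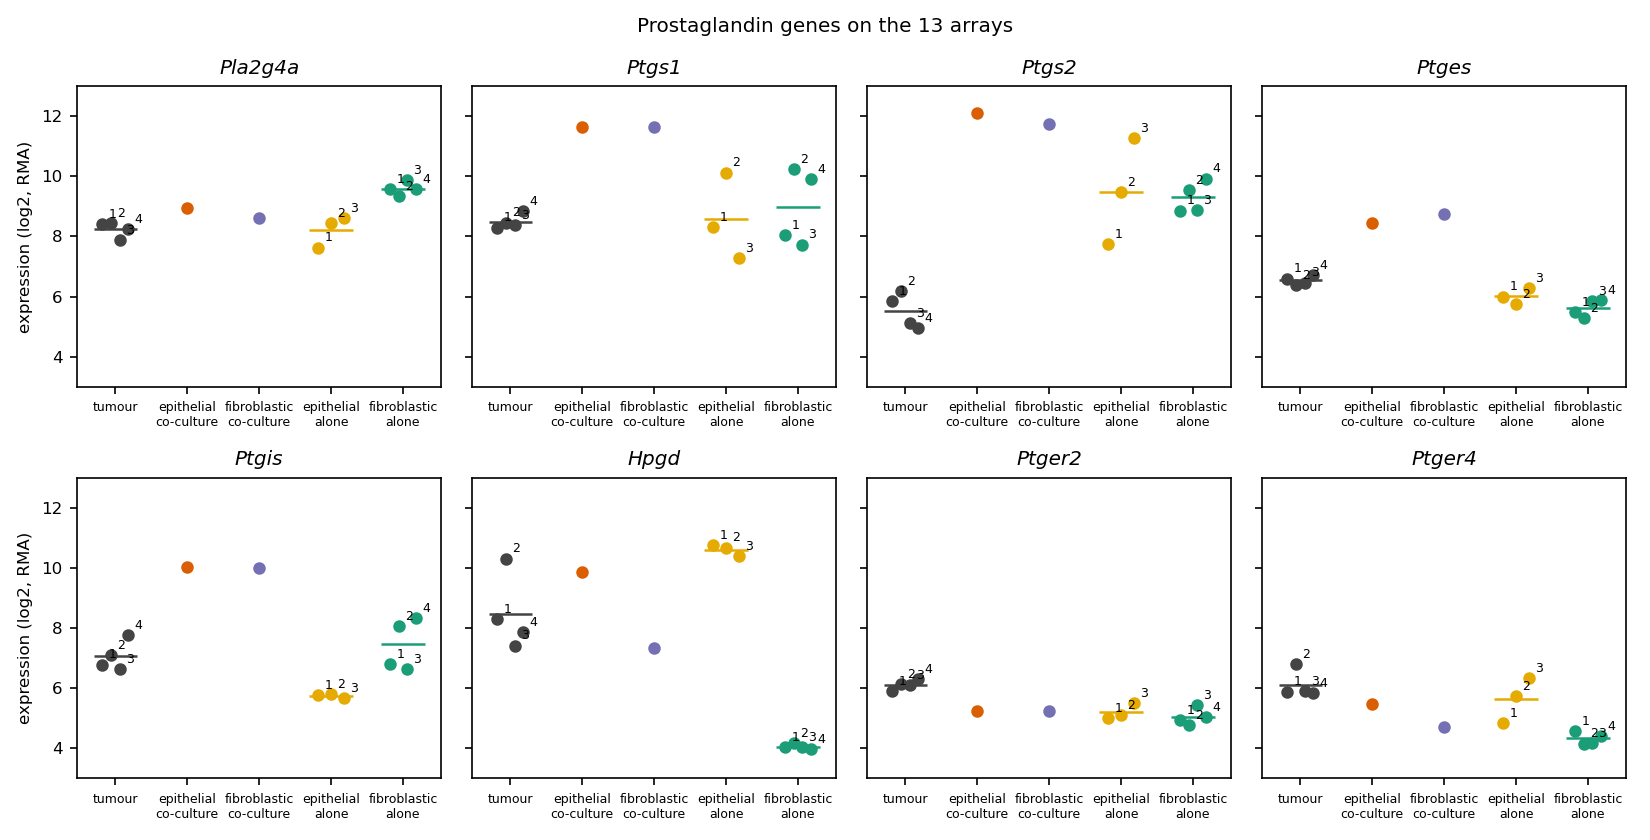
Log2 RMA value (vertical axis) of each of the 8 prostaglandin genes, 1 panel per gene and 1 point per array, with the groups along the horizontal axis and bars at the group means of the replicated groups. Ptgs1, Ptgs2, Ptges and Ptgis stand above every array of both lines in both co-culture arrays, and Hpgd lies between 3.97 and 4.16 in the fibroblastic line.

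Ptgs1, the constitutive cyclooxygenase, was higher in both co-culture arrays than in any other array. It read 8.29, 8.46, 8.38 and 8.85 in the tumours, 11.64 in the epithelial co-culture array, 11.63 in the fibroblastic co-culture array, 8.32, 10.12 and 7.29 in the epithelial line, and 8.05, 10.23, 7.73 and 9.91 in the fibroblastic line. The tumours were tightly grouped and fell inside the range of both lines, whose own arrays spread widely (SD 1.43, n = 3, and 1.27, n = 4). No difference between tumours and lines or between the lines passed the test, and the intervals were wide: -1.67 to 1.5 for tumours minus the epithelial line and -1.95 to 0.98 for tumours minus the fibroblastic line. The co-culture arrays exceeded the highest line array by 1.41 and 1.40, but neither passed against its own line alone (3.06, adjusted p = 0.194, for the epithelial line and 2.65, adjusted p = 0.264, for the fibroblastic line). The second probe set gave 7.65 and 7.53 in the 2 co-culture arrays, against 5.78 to 7.19 in epithelial and 5.42 to 7.35 in fibroblastic arrays.

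Ptgs2, the inducible cyclooxygenase, was far lower in the tumours than in any culture. It read 5.84, 6.18, 5.12 and 4.95 in the tumours, 12.10 in the epithelial co-culture array, 11.73 in the fibroblastic co-culture array, 7.75, 9.46 and 11.26 in the epithelial line, and 8.86, 9.55, 8.88 and 9.92 in the fibroblastic line. All 4 tumours lay below every culture, and both co-culture arrays lay above every array of the lines grown alone. The gene was 15.6-fold lower in tumours than in the epithelial line (log2 difference -3.97, SE 0.67, adjusted p = 0.000793) and 13.7-fold lower than in the fibroblastic line (-3.78, SE 0.62, adjusted p = 0.000414). The first of these moved to -4.84 without epithelial array 1 and to -3.08 without epithelial array 3, and stayed called. The lines themselves overlapped and differed by 0.19, with an interval from -1.49 to 1.87. In co-culture the difference did not pass the test (2.61, adjusted p = 0.210, against the epithelial line and 2.43, adjusted p = 0.246, against the fibroblastic line), except that the first was called when epithelial array 3, the highest of its line, was left out (3.49, adjusted p = 0.0410), and the second when only the 2 groups compared were fitted (2.43, adjusted p = 0.0406).

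In 3 genes, Ptgs1, Ptgs2 and Ptgis, fibroblastic arrays 2 and 4 both lay above arrays 1 and 3, by a mean of 2.18, 0.87 and 1.48. This split was not particular to these genes. Over all probe sets arrays 2 and 4 correlated at 0.9887 and arrays 1 and 3 at 0.9867, against 0.9487 to 0.9626 for the other pairs of the line. The tests treat the 4 arrays as equal replicates. Their actin 3' to 5' log2 difference, a measure of RNA integrity and labelling, was 2.65 and 2.01 in arrays 2 and 4, against 1.72 and 1.04 in arrays 1 and 3. Its part in these values was not tested. With arrays 2 and 4 left out, 3 members were called between the fibroblastic co-culture array and its line and 6 between tumours and the fibroblastic line, the counts obtained with all arrays. Between the lines 3 were called without them, against 4, since Ptger4 no longer passed (1.24, adjusted p = 0.0648).

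Ptges, the inducible synthase of prostaglandin E2, was raised in both co-culture arrays. It read 6.60, 6.38, 6.46 and 6.71 in the tumours, 8.45 in the epithelial co-culture array, 8.75 in the fibroblastic co-culture array, 6.0, 5.74 and 6.27 in the epithelial line, and 5.49, 5.28, 5.84 and 5.87 in the fibroblastic line. Co-culture arrays lay above all tumours, tumours above all arrays of the lines, and the lines overlapped. The rise was 5.46-fold in the epithelial co-culture array (log2 difference 2.45, SE 0.31, adjusted p = 0.00273) and 8.77-fold in the fibroblastic co-culture array (3.13, SE 0.30, adjusted p = 0.000745), each against its line alone. On the second Ptges probe set the same differences were 4.01 and 5.20.
Against the fibroblastic line, tumours were 1.89-fold higher (0.92, SE 0.17, adjusted p = 0.000870). Against the epithelial line they were 1.45-fold higher (0.54, SE 0.18, adjusted p = 0.0297). This call was lost when single arrays were left out: the adjusted p was 0.0665 without tumour 1, 0.0752 without tumour 4, 0.0711 without epithelial array 1 and 0.119 without epithelial array 2, and the second Ptges probe set gave -0.24 (adjusted p = 0.330).

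Ptgis, which makes prostacyclin, was lowest in the epithelial line and highest in the co-culture arrays. It read 6.78, 7.10, 6.63 and 7.76 in the tumours, 10.03 in the epithelial co-culture array, 10.00 in the fibroblastic co-culture array, 5.76, 5.80 and 5.66 in the epithelial line, and 6.80, 8.07, 6.63 and 8.33 in the fibroblastic line. The co-culture arrays exceeded the highest array of either line by 1.70 and 1.67, and tumours overlapped the fibroblastic line only. The epithelial line was 3.29-fold lower than the fibroblastic line (log2 difference -1.72, SE 0.42, adjusted p = 0.0142). The epithelial co-culture array was 19.5-fold above the epithelial line (4.29, SE 0.64, adjusted p = 0.00622), and this array also held fibroblastic markers, as given above. The fibroblastic co-culture array was 5.83-fold above the fibroblastic line (2.54, SE 0.62, adjusted p = 0.0445). That call was lost, at adjusted p from 0.0517 to 0.0751, when any epithelial array, fibroblastic array 1 or fibroblastic array 3 was left out. Tumours were 2.51-fold above the epithelial line (1.33, SE 0.42, adjusted p = 0.0213), a call lost without tumour 4 (0.0566), epithelial array 1 (0.0550) or epithelial array 3 (0.0562).

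Hpgd, the dehydrogenase that inactivates prostaglandin E2, separated the 2 lines by the widest gap of the 8 genes. It read 8.29, 10.30, 7.41 and 7.85 in the tumours, 9.86 in the epithelial co-culture array, 7.32 in the fibroblastic co-culture array, 10.75, 10.67 and 10.38 in the epithelial line, and 4.04, 4.16, 4.04 and 3.97 in the fibroblastic line. Epithelial arrays were the highest, fibroblastic arrays the lowest with no overlap, and tumours and co-culture arrays lay between them. The epithelial line was 93.6-fold above the fibroblastic line (log2 difference 6.55, SE 0.14, adjusted p = 6.53e-08), and the second Hpgd probe set gave 5.68. Tumours were 4.41-fold below the epithelial line (-2.14, SE 0.53, adjusted p = 0.00691) and 21.2-fold above the fibroblastic line (4.41, SE 0.49, adjusted p = 2.74e-05). Tumour 2 read 2.45 above the mean of the other 3 tumours, and without it these differences were -2.75 and 3.8, both still called.
In co-culture the 2 labelled arrays parted. The fibroblastic co-culture array was 9.66-fold above the fibroblastic line (3.27, SE 0.21, adjusted p = 0.000117), while the epithelial co-culture array was below the epithelial line by an amount that did not pass (-0.74, adjusted p = 0.0870). The difference between these responses, epithelial minus fibroblastic, was -4.01 (SE 0.30, adjusted p = 0.000175), and Hpgd was the 1 gene of the 8 called in that test, in which 8.43% of all genes were called. The difference of responses includes the gap of 6.55 between the lines alone. With markers of both lines in each co-culture array, it cannot tell a different response from a mixture of the lines. Hpgd read 2.54 higher in the epithelial than in the fibroblastic co-culture array. Between the same 2 arrays the 6 epithelial markers differed by -0.44 (Krt18) to 0.56 (Cldn4), and the 6 fibroblastic markers by -1.5 (Acta2) to 0.57 (Postn). As epithelial markers were present in the array labelled fibroblastic co-culture, they moved with Hpgd against the fibroblastic line, and their part in that rise was not tested.

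The EP2 receptor gene Ptger2 was higher in tumours than in any culture. It read 5.90, 6.12, 6.09 and 6.29 in the tumours, 5.23 in the epithelial co-culture array, 5.25 in the fibroblastic co-culture array, 5.01, 5.10 and 5.50 in the epithelial line, and 4.93, 4.76, 5.43 and 5.04 in the fibroblastic line. The culture groups overlapped one another. The signal was low: all cultures lay below the array medians (6.147 to 6.248 over all probe sets), and the tumours lay near them. Tumours were 1.86-fold above the epithelial line (log2 difference 0.89, SE 0.18, adjusted p = 0.00240) and 2.08-fold above the fibroblastic line (1.06, SE 0.17, adjusted p = 0.000350). After a further quantile normalization the first of these was 0.43 and was no longer called (adjusted p = 0.0599). No co-culture difference passed (0.03, adjusted p = 0.980, against the epithelial line and 0.21, adjusted p = 0.765, against the fibroblastic line).

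The EP4 receptor gene Ptger4 was lowest in the fibroblastic line. It read 5.88, 6.80, 5.91 and 5.83 in the tumours, 5.48 in the epithelial co-culture array, 4.71 in the fibroblastic co-culture array, 4.83, 5.72 and 6.32 in the epithelial line, and 4.58, 4.15, 4.18 and 4.41 in the fibroblastic line. Tumours and epithelial arrays overlapped, and every tumour and epithelial array lay above every fibroblastic one. Tumours were 3.42-fold above the fibroblastic line (1.77, SE 0.31, adjusted p = 0.000635), and the epithelial line was 2.45-fold above it (1.29, SE 0.32, adjusted p = 0.0152), a call lost without epithelial array 2 (1.25, adjusted p = 0.0513). Tumours minus the epithelial line gave 0.48, with an interval from -0.26 to 1.22 (adjusted p = 0.249). In co-culture Ptger4 did not pass the test against either line (-0.14, adjusted p = 0.924, and 0.38, adjusted p = 0.726).

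**Figure D2:**
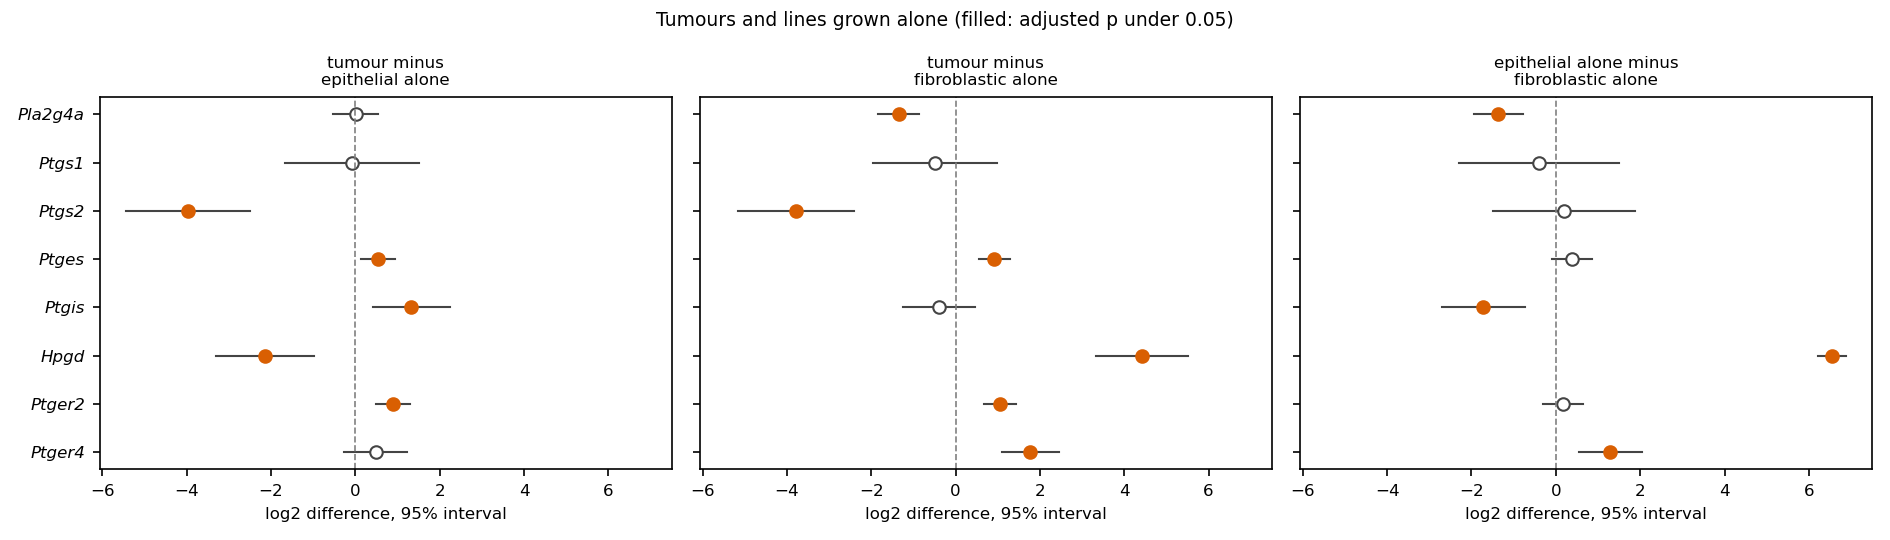
Log2 difference of each prostaglandin gene with its 95% interval (horizontal axis) for tumours minus the epithelial line, tumours minus the fibroblastic line, and the epithelial minus the fibroblastic line, with filled points where the adjusted p was under 0.05. Ptgs2 lies left of 0 in both tumour panels, at -3.97 and -3.78, and Hpgd reaches 6.55 between the lines.

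Set against the epithelial line, tumours had lower Ptgs2 and Hpgd and higher Ptgis, Ptger2 and Ptges, so 3 of the 8 genes were called higher and 2 lower. Over all genes 18.9% were called higher and 33.2% lower in that comparison, and the median log2 difference was 0.25 over the 8 genes and -0.17 over all genes. Set against the fibroblastic line, tumours had higher Hpgd, Ptger4, Ptger2 and Ptges and lower Ptgs2 and Pla2g4a, which is 4 genes higher and 2 lower, where 27.3% and 33.5% of all genes were called. Here the medians were 0.26 and -0.07. The 2 comparisons share the tumour arrays. Markers of other cells stood above the cultures in the tumours, macrophages as given above: the 6 lymphocyte markers averaged 7.00 to 7.29 in tumours, against 4.38 to 4.95 over all cultures, and the 4 endothelial markers measured averaged 6.68 to 8.10, against 4.17 to 4.63. The actin 3' to 5' log2 difference was 0.606 to 0.752 in tumours, against 0.848 to 2.65 over all cultures. The 6 hepatocyte markers averaged 5.41 to 13.28 in tumours, against 4.57 to 4.67 over all cultures. They were lowest in tumour 2, in which Hpgd was highest: Alb, albumin, read 7.50 there, against 13.94 to 14.51 in the other 3 tumours. The part of these cells and of RNA integrity in the tumour differences was not tested.

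Between the lines, the epithelial cells had more Hpgd and Ptger4 and less Pla2g4a and Ptgis. That is 2 genes higher and 2 lower, and over all genes 20.9% were higher and 16.6% lower. The medians were 0.18 over the 8 genes and 0.11 over all genes. Both cyclooxygenases, Ptges and Ptger2 did not pass the test.

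In co-culture the 2 terminal synthases rose. Against the epithelial line, the epithelial co-culture array had 2 genes called higher, Ptges and Ptgis, where 4.87% of all genes were called, and none called lower by limma, where 2.37% were. Of the members not called there, Ptgs1 (3.06), Ptgs2 (2.61), Pla2g4a (0.72) and Ptger2 (0.03) read higher. Hpgd (-0.74) and Ptger4 (-0.14) read lower. Against the fibroblastic line, the fibroblastic co-culture array had 3 genes called higher, Ptges, Ptgis and Hpgd, where 4.78% of all genes were called, and none lower by limma, where 3.63% were. Of the members not called in this comparison, Ptgs1 (2.65), Ptgs2 (2.43), Ptger4 (0.38) and Ptger2 (0.21) read higher. Pla2g4a (-0.97) read lower. The median over the 8 genes was 1.58 in the epithelial and 2.49 in the fibroblastic comparison, against -0.09 and 0.03 over all genes. Each co-culture is 1 array, assumed in the fit to vary like the replicated groups. The 3 neutrophil markers measured averaged 8.34 in the epithelial and 6.96 in the fibroblastic co-culture array, against 5.38 to 6.68 in epithelial and 4.17 to 4.46 in fibroblastic arrays, and their part in these values was not tested. By marker, S100a9 read 13.42 and 11.50 and S100a8 read 7.47 and 5.25 in the epithelial and fibroblastic co-culture arrays. Csf3r, the receptor for granulocyte colony-stimulating factor, read 4.12 and 4.14 there, against 3.98 to 4.32 in epithelial and 4.18 to 4.46 in fibroblastic arrays. S100a9 was not low in the epithelial line either, at 7.36 to 10.53. The 8 macrophage markers averaged 5.35 and 5.24 in the same 2 co-culture arrays, near the 4.93 to 5.45 of the lines.

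Because the 2 co-culture arrays held markers of both lines, each gene was also read against both lines at once. In 4 of the 8 genes, Ptgs1, Ptgs2, Ptges and Ptgis, both co-culture arrays lay above every array of both lines, as they did in 5.8% of all genes (825 genes). The 8 genes were chosen with earlier results of these data known, so setting these shares side by side is not a test of the pathway. The excess over the highest line array was 2.18 and 2.48 for Ptges and 0.83 and 0.47 for Ptgs2. As 1 group of 2 arrays, a comparison added after the values were seen, the co-cultures had 2 genes higher than the epithelial line, Ptges (2.60, adjusted p = 0.000107) and Ptgis (4.27, adjusted p = 0.000384), where 8.75% of all genes were higher, and 1 gene lower, Hpgd (-2.01, adjusted p = 0.0400), where 9.62% were lower. Ptgs1 gave 3.06 there (adjusted p = 0.0503) and Ptgs2 gave 2.42 (adjusted p = 0.0742). Against the fibroblastic line the same group had 4 genes higher, Ptges (2.98, adjusted p = 3.98e-05), Ptgis (2.56, adjusted p = 0.00420), Hpgd (4.54, adjusted p = 0.000510) and Ptgs2 (2.61, adjusted p = 0.0450), where 9.53% of all genes were higher. Ptgs1 gave 2.65 (adjusted p = 0.0643). These p-values treat 2 differently labelled arrays as replicates. The labels do not say that they came from separate cultures.

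**Figure D3:**
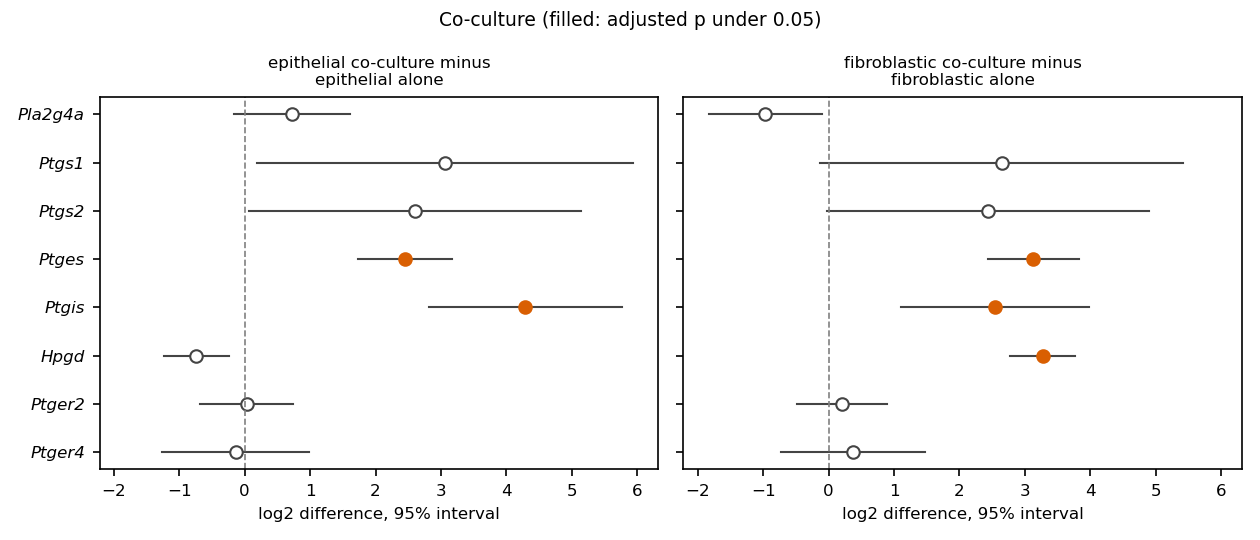
Log2 difference of each prostaglandin gene with its 95% interval (horizontal axis) between each co-culture array and its own line grown alone, with filled points where the adjusted p was under 0.05. Ptges and Ptgis lie to the right of 0 in both panels, and Hpgd is at -0.74 in the epithelial and 3.27 in the fibroblastic panel.

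Tumours and co-cultures, both of which hold epithelial and fibroblastic markers, differed most in the cyclooxygenases and synthases. In a fit of all 13 arrays, also added after the values were seen, Ptgs2 was 83.9-fold lower in tumours than in the 2 co-culture arrays (log2 difference -6.39, SE 0.73, adjusted p = 5.97e-05). Ptgs1 was 8.83-fold lower (adjusted p = 0.00894), Ptgis 7.71-fold lower (adjusted p = 0.000471) and Ptges 4.18-fold lower (adjusted p = 2.05e-05). These were 4 genes lower and 1 higher, Ptger2 (0.86, adjusted p = 0.00608), where 22.3% of all genes were lower and 12.9% higher. Hpgd differed by -0.13, with an interval from -1.74 to 1.47. As above, this fit treats the 2 co-culture arrays as replicates, which the labels do not establish.

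Around the 8 genes, 58 of 61 further genes were measured, in 7 lists. Besides prostaglandin genes, the lists hold the leukotriene branch, genes known to be induced by EP2 and EP4 signalling, and factors known to induce Ptgs2. Tumours differed from the epithelial line by 17 of the 58 called higher and 13 lower, where 18.9% and 33.2% of all genes were called, and from the fibroblastic line by 22 higher and 17 lower, where 27.3% and 33.5% were. Of the 8 other prostanoid synthases, 3 were higher than in the epithelial line: Tbxas1, which makes thromboxane (log2 difference 2.80, adjusted p = 2.66e-06), Prxl2b, a prostamide and prostaglandin F synthase (1.52, adjusted p = 0.00249), and Hpgds, the hematopoietic prostaglandin D synthase (1.04, adjusted p = 0.00148). Another 3 were lower, among them the carbonyl reductase gene Cbr1 (-1.14, adjusted p = 0.000251). Tbxas1 read 8.92, 9.08, 9.13 and 8.76 in the tumours, against 5.74 to 6.50 in the epithelial and 5.41 to 5.98 in the fibroblastic line. The macrophage markers, given above, likewise lay higher in tumours than in either line, and their part in these values was not tested.

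Phospholipases other than Pla2g4a, and the lipases encoded by Mgll and Daglb, can also help to supply arachidonic acid. Of 11 such genes measured, 3 were higher and 3 lower in tumours than in the epithelial line (18.9% and 33.2% of all genes). Against the fibroblastic line, 7 were higher and 1 lower in tumours (27.3% and 33.5%). Pla2g2a, a secreted phospholipase, read 10.26, 12.14, 9.66 and 10.15 in the tumours, 11.45 and 5.45 in the epithelial and fibroblastic co-culture arrays, 4.67, 10.41 and 8.68 in the epithelial line, and from 4.45 to 4.90 in the fibroblastic line. It was 57.0-fold higher in tumours than in the fibroblastic line (adjusted p = 0.000555) but overlapped the epithelial line (adjusted p = 0.0615). Like Hpgd, it was far higher in the epithelial than in the fibroblastic co-culture array.

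The prostaglandin carriers and reductases came to 5 genes. Slco2a1, the prostaglandin uptake transporter, was 7.83-fold higher in tumours than in the fibroblastic line (adjusted p = 0.00129) and 7.43-fold higher in the epithelial than in the fibroblastic line (adjusted p = 0.00112). Abcc4, an exporter, was lower in tumours than in either line (-1.58, adjusted p = 0.000900, and -0.99, adjusted p = 0.00601). In the fibroblastic co-culture array Ptgr1, a prostaglandin reductase, was higher than in its line (2.01). In the epithelial co-culture array Ptgr2, another, was lower than in its line (-1.18). The epithelial and fibroblastic co-culture arrays read alike for both genes, at 11.35 and 11.59 for Ptgr1 and 8.15 and 8.16 for Ptgr2. Ptgr1 read 9.51 to 11.04 in the epithelial and 9.43 to 9.74 in the fibroblastic line. Ptgr2 read 9.05 to 9.65 and 8.81 to 9.07 in the same lines. Of the 5 other prostanoid receptors measured, Ptger3, Ptgfr and Ptgdr2 were higher and Ptger1 lower in tumours than in the epithelial line, by at most 0.70. In the leukotriene branch, 4 of 9 genes were higher and 0 lower by limma in that comparison (18.9% and 33.2% of all genes), led by Alox5ap (2.06, adjusted p = 8.22e-05), and none of the 9 passed in either co-culture comparison.

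**Figure D4:**
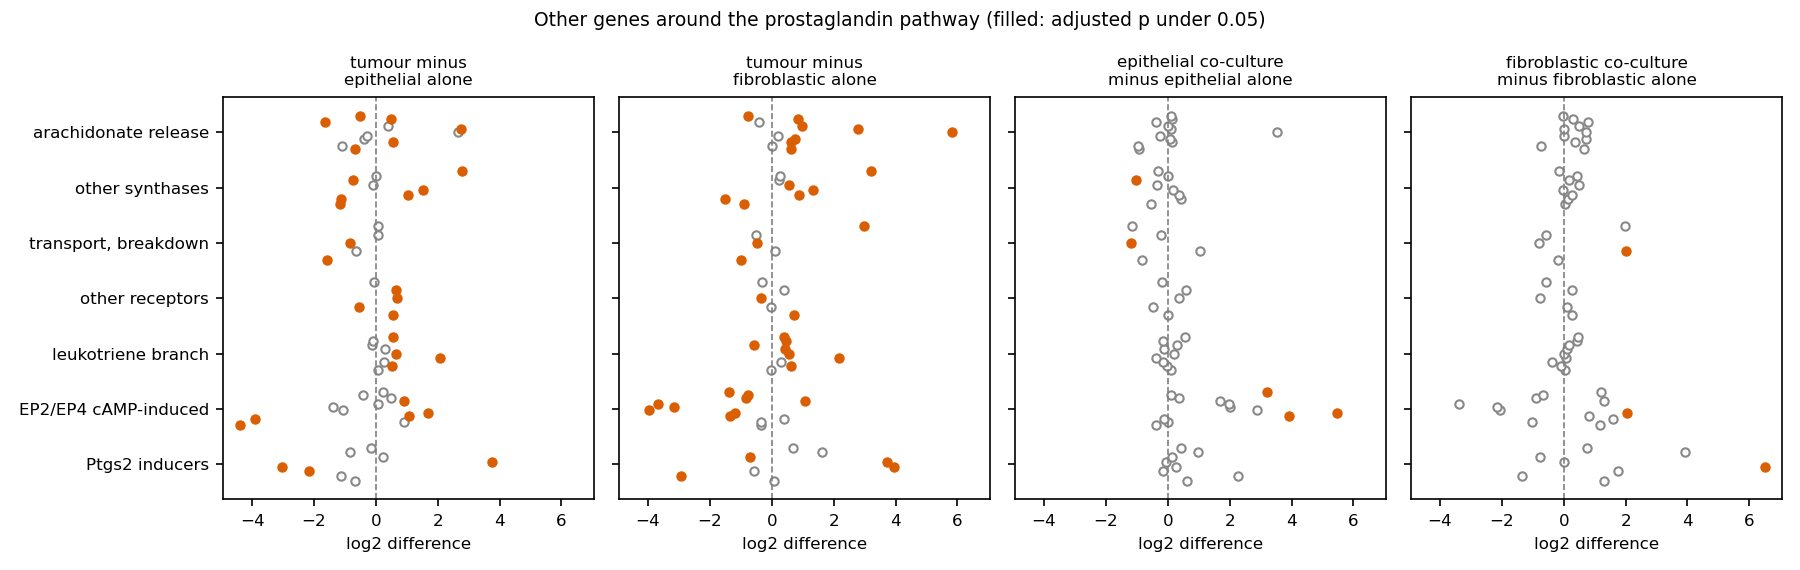
Log2 difference (horizontal axis) of the 58 other genes measured around the pathway, 1 row per list and 1 point per gene. Panels show tumours minus each line and each co-culture array minus its own line grown alone, with filled points where the adjusted p was under 0.05. In the co-culture panels 3 genes are called higher in each, and 2 lower in the epithelial one.

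Genes known to be induced by EP2 and EP4 signalling through cyclic AMP were described for their levels. Of the 12, 3 were higher and 0 lower by limma in the epithelial co-culture array than in the epithelial line, where 4.87% and 2.37% of all genes were called: Il6, a cytokine (5.46, adjusted p = 0.000114), Has2, a hyaluronan synthase (3.92, adjusted p = 0.00659), and Vegfa, a vascular growth factor (3.20, adjusted p = 0.00170). The median of the list was 1.85, against -0.09 over all genes. These 3 genes were 7.43-, 5.44- and 3.04-fold lower in the epithelial than in the fibroblastic line, and the epithelial co-culture array also held fibroblastic markers, whose part in the 3 rises was not tested. In the fibroblastic co-culture array 1 of the 12 was higher than in its line, Il6 (2.05, adjusted p = 0.0149), where 4.78% of all genes were, and the median was 0.07, against 0.03. Il6 read 9.57 and 9.05 in the epithelial and fibroblastic co-culture arrays, above both lines as Ptges was. Its levels were 3.83 to 4.49 in epithelial and 6.66 to 7.52 in fibroblastic arrays. Vegfa read 12.22 and 11.81 in the same 2 co-culture arrays, also above both lines (8.54 to 9.38 and 10.29 to 11.01). Has2 read 8.94 and 8.28 in them, against 4.89 to 5.27 in epithelial and 6.66 to 8.32 in fibroblastic arrays. In tumours, 8 of the 12 were lower than in the fibroblastic line, where 33.5% of all genes were. Another 1 was higher, Pde4b (1.06), where 27.3% were. Nr4a1, Nr4a3 and Nr4a2, nuclear receptors rapidly induced by cyclic AMP, led the lower genes (-3.96, -3.68 and -3.17). Each of them was highest in fibroblastic arrays 2 and 4. Against the epithelial line, 3 of the 12 were higher and 2 lower in tumours, where 18.9% and 33.2% of all genes were called. The median there was 0.14, against -0.17 over all genes.

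Of the 8 cytokines and factors known to induce Ptgs2, Il1a and Il1b, the interleukin-1 genes, followed different groups. Il1a read 7.94, 8.72, 8.64 and 7.81 in the tumours, 11.57 and 10.83 in the epithelial and fibroblastic co-culture arrays, 11.15, 10.53 and 12.24 in the epithelial line, and from 4.18 to 4.55 in the fibroblastic line. It was 127-fold higher in the epithelial than in the fibroblastic line (adjusted p = 3.12e-06) and 6.51 higher in the fibroblastic co-culture array, which also held epithelial markers, than in the fibroblastic line (adjusted p = 0.000328). No other gene of this list was called when each co-culture array was set against its own line. With both co-culture arrays as 1 group against the fibroblastic line, Tgfa, a growth factor, was higher as well (3.68, adjusted p = 0.0176). So was Fosl1, an AP-1 subunit (1.60, adjusted p = 0.0268). Nfkb1, an NF-kB subunit, was lower (-0.77, adjusted p = 0.0204). The epithelial line alone differed from the fibroblastic line in the same directions (2.46, 1.59 and -0.91 for Tgfa, Fosl1 and Nfkb1). The co-culture arrays held markers of both lines, and their part in these differences was not tested. In the fibroblastic line Tgfa read 9.43 and 9.10 in arrays 1 and 3, against 6.20 and 6.72 in arrays 2 and 4. Il1b read 9.04, 9.33, 8.29 and 9.23 in the tumours, against 4.82 to 5.48 over both lines, and so stood highest where Ptgs2 was lowest. The macrophage markers, given above, were also highest in the tumours, and how these levels relate was not tested.

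Genes whose pattern over the 13 arrays came closest to each member were found by the root mean square difference of log2 values after centring each gene, which is a description of these arrays. For Ptges they were Bmp7 (0.25), Padi3 (0.26) and Crabp1 (0.32), where Ptges itself varied by 1.01. For Ptgis they were Galnt16 (0.41), Parvb (0.43) and Lpar1 (0.43), against 1.40. For Hpgd they were Ripk4 (0.76), Heph (0.76) and Krtcap3 (0.78), against 2.64. Ptgs1 was closest to Hilpda (0.63), Tcf7 (0.66) and Plcd4 (0.70), against 1.37. Ptgs2 had no near neighbour: its closest were Marf1 (1.26), Apc2 (1.39) and Maff (1.43), against 2.36. Pla2g4a was closest to Lrrc57 (0.25), Epha7 (0.25) and Lrrc58 (0.26), against 0.66. The receptors were closest to Defb22 (0.10), Chrm5 (0.12) and Minar2 (0.13) for Ptger2, against 0.49, and to Oasl (0.30), Trib1 (0.30) and Cytip (0.31) for Ptger4, against 0.83.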

How the data were processed

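Total RNA extracted with Trizol was labelled by the standard Affymetrix protocol, per the labels' protocols. The deposited log2 values were made by the authors with RMA, per the submitters' processing notes. Which arrays were normalized with one another was not given in the sources used here, and the log base of the values was inferred from their range (2.94 to 14.69). No further normalization was applied. Of 31099 probe sets, 20826 named 1 gene, and symbols were updated by Entrez identifier for 20758. The 8 members and the gene lists were chosen with earlier results of these data known.

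Group means were tested with limma 3.58.1 (R 4.3.3), two-sided, with Benjamini-Hochberg adjustment over all 14217 genes and calls at adjusted p under 0.05. An 11-array fit served the tumour comparisons and a 9-array fit the lines and co-cultures. The scripts were tested on simulated data. Nothing in the labels says that replicates of a line came from separate cultures, so p-values measure only the spread between arrays. Tables used pandas 2.3.3 and numpy 2.4.6 in Python 3.11.15, and figures used matplotlib 3.10.9. Of the other genes around the pathway, up to 3 called genes per list, direction and comparison with the largest difference could be named. For each member the 3 genes of most like pattern could also be named. Alternatives were other fits, normalizations, filters, thresholds and probe sets, and arrays left out.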

Additional observations from a re-analysis of the deposited data

Results flagged for a closer look

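Ptger4 read 6.80 in tumour 2, a value set apart from the other 3 tumours, which lay between 5.83 and 5.91. Its gap passed Dixon's 95% critical value for 4 samples, 1 such value in 16 combinations of gene and group examined, and chance gives about 1 in 20. Tumour 2 was also 2.45 above the mean of the other tumours for Hpgd and 0.88 above it for Ptgs2, and its hepatocyte marker Alb read 7.50, against 13.94 to 14.51 in the others.

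The difference of co-culture responses for Hpgd was -4.01 (epithelial minus fibroblastic response). The test rests on 1 array per co-culture, and both arrays held markers of both lines. It also contains the gap of 6.55 between the lines alone, against 2.54 between the co-culture arrays. For that reason it cannot tell a different response of the lines from a mixture of both lines in each array.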

How the results depend on the processing

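Over all members and alternatives, 837 of the results kept their direction and their side of the threshold, 20 lost a call, 6 gained one and 24 changed sign. Of the 24 only Ptges in tumours minus the epithelial line had been called, at -0.24 on its second probe set (adjusted p = 0.330); none was called after the change. Ptgs1 in the same comparison gave 0.27 after a further quantile normalization, 0.11 with arrays centred on their median and -0.73 to 0.69 with single arrays left out, and Pla2g4a gave -0.29 to 0.20 with single arrays left out. Without fibroblastic arrays 2 and 4, tumours minus the fibroblastic line gave 0.60 for Ptgs1 and 0.35 for Ptgis. Between the lines Ptgs1 gave 0.04 on its second probe set, 0.69 without fibroblastic arrays 2 and 4 and -1.17 to 0.24 with single arrays left out, and Ptgs2 gave -0.70 to 1.06. In the epithelial co-culture Ptger2 gave -0.19 after quantile normalization and -0.07 to 0.18 with single arrays left out, and Ptger4 gave -0.54 to 0.21. The difference of responses gave -0.23 to 1.19 for Ptgs1 and -0.69 to 1.06 for Ptgs2 with single arrays left out, and -0.68 and -0.26 without fibroblastic arrays 2 and 4. The cause of these changes was not tested. In tumours minus the epithelial line 5 members were called, against 3 at adjusted p under 0.01, 3 at a 2-fold limit and 3 after a further quantile normalization, where Ptges (0.19, adjusted p = 0.369) and Ptger2 (0.43, adjusted p = 0.0599) were lost; leaving out single arrays gave 3 to 5. Between the lines 4 members were called, against 2 at adjusted p under 0.01 and 3 to 4 with single arrays left out. Leaving out single arrays gave 6 to 6 for tumours minus the fibroblastic line, 2 to 3 for each co-culture comparison and 1 to 1 for the difference of responses. The second Ptges probe set called Ptges between the lines (0.78, adjusted p = 0.0182), and the second Hpgd probe set called Hpgd lower in the epithelial co-culture (-1.31, adjusted p = 0.0493). With only the fibroblastic groups in the fit, Ptgs2 was called in co-culture (adjusted p = 0.0406) and Ptgis was not (adjusted p = 0.121). Same-numbered arrays of different groups deviated with correlations from -0.148 to 0.143, which shows no clear shared deviation. The labels do not say whether the numbers pair the arrays, and these correlations cannot exclude it. With the replicate block the counts were 5, 6 and 3, Ptger4 between the lines being lost (1.32, adjusted p = 0.0595). No paired analysis was possible for the co-cultures, which carry no numbers. Each is 1 array, which limits its precision.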
